A study of Mus musculus with 8 samples.

Results

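The comparison described here set KLS cells of transgenic mice (TG) against KLS cells of wild-type mice (WT), 2 arrays against 2. The KLS gate takes marrow cells that carry c-Kit and Sca-1 and lack lineage antigens, the fraction with the stem cells and multipotent progenitors. The TG mice are labelled ∆Hmga2, a truncated Hmga2, and the series is titled as overexpression; all mice were of strain C57BL/6J. The sources used here do not give the promoter of the transgene, the line's origin or the age of the mice. Each array carried RNA of an independent preparation of flow-sorted cells, pooled from 4 or 6 mice. The 4 arrays belong to a series of 8, whose other 4 hold MEP cells, the megakaryocyte-erythroid progenitors, of the same genotypes. The arrays were chosen by their titles, TG KLS 1 and 2 and WT KLS 1 and 2. All 19938 genes with a probe set that carries a single gene symbol were compared, each by its brightest probe set. Levels are log2 values, a difference is TG minus WT on that scale, and a fold size is the same difference on the linear scale. The summaries used for each gene were the mean difference, and whether both TG arrays lay on one side of both WT arrays, here called not overlapping.

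Hmga2 encodes a small chromatin protein that binds AT-rich DNA and bends it, and it is abundant in fetal stem cells and scarce in most adult tissues. MicroRNAs of the let-7 family bind sites in the untranslated end of its messenger RNA and reduce its output, and the RNA-binding proteins Lin28a and Lin28b block the maturation of let-7. A transcript that has lost those sites escapes this control, which is why shortened forms are used to raise the protein's level. In blood formation, Hmga2 has been tied to the self-renewal of stem cells.

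Before the genotypes are compared, the arrays themselves need a description. Over all genes the arrays correlated best with the array of the same number and the other genotype, at 0.991 for TG KLS 1 with WT KLS 1 and 0.990 for TG KLS 2 with WT KLS 2, against 0.988 between the TG arrays and 0.983 between the WT arrays. The labels do not say what a shared number means. The SD over genes of the difference was 0.249 and 0.254 within the numbers, 0.279 between the TG arrays and 0.332 between the WT arrays. The label KLS was borne out by Kit, Cd34, Flt3, Cd48, Hlf and Meis1, which lay between the 87.4 and 95.5 percentile of all genes; Ly6a, which encodes Sca-1, was not measured by such a probe set, and the long-term stem cell markers Slamf1, Procr and Fgd5 lay between the 37.3 and 38.9 percentile. T cell markers lay between 21.7 and 50.5. The lineage-negative part was not borne out in full. The neutrophil granule genes S100a8 and S100a9 lay at the 99.7 percentile, and the mean of 7 mature neutrophil markers was 10.48 and 10.44 on the TG arrays and 10.37 and 11.35 on the WT arrays. WT KLS 2 thus stood above the other 3 arrays. The erythroblast markers Slc4a1 and Alas2 averaged 7.87 and 8.38 on the TG and 8.50 and 9.26 on the WT arrays. The macrophage markers averaged 7.13 and 7.42 on TG and WT KLS 1, and 6.28 and 6.42 on TG and WT KLS 2. In bulk RNA, fewer cells of a type and less RNA per cell cannot be told apart, and how far such cells enter the differences below was not tested.

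Hmga2 itself differed little between the genotypes. Its level was 7.35 and 7.11 on the TG arrays and 6.85 and 7.12 on the WT arrays. The groups overlapped, because WT KLS 2 lay level with TG KLS 2. The difference was 0.25 ± 0.15 (SE, 95% interval -0.10 to 0.59; limma adjusted p = 1.00), a fold size of 1.19. The sources used here do not say whether the probe set lies in the part of the gene that the transgene keeps, so this level does not check the genotype labels.

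The let-7 family is the known repressor of the full-length transcript, and members share the seed, bases 2 to 8 of the mature strand, that pairs with the target. A RefSeq table (GRCm38.p6) held a mature sequence for 270 of the 296 microRNA precursor genes measured. The first 3 sequences are let-7 family members whose precursors were lower on both TG arrays, shown to make the shared seed visible. The other 2 belong to the precursors with the largest differences among those not overlapping. Capitals mark the seed.
mmu-let-7a-5p: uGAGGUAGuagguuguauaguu
mmu-let-7g-5p: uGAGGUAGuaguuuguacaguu
mmu-miR-98-5p: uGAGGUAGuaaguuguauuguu
mmu-miR-202-3p: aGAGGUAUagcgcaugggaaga
mmu-miR-363-3p: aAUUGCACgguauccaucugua
They lie at chr13:48538239-48538260 on the minus strand (let-7a of Mirlet7a-1), chr9:106178846-106178867 on the plus strand (let-7g), chrX:151913229-151913250 on the plus strand (miR-98), chr7:139957695-139957716 on the minus strand (miR-202) and chrX:52741697-52741718 on the minus strand (miR-363). The miR-202-3p seed differs from that of let-7 in its last base.

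The array reports precursor genes, and mature microRNA was not measured. Mirlet7a-1 was at 5.42 and 5.56 in TG and 5.70 and 5.79 in WT KLS cells. Mirlet7g was at 5.198 and 5.09 against 5.36 and 5.35, and Mir98 at 4.96 and 4.79 against 5.14 and 5.13. In each the groups did not overlap and TG was lower, by -0.25 ± 0.19, -0.21 ± 0.15 and -0.26 ± 0.14 (SE). Of the 10 let-7 and Mir98 precursors, 4 were not overlapping and lower in TG, the fourth being Mirlet7e at a difference of -0.07, and the other 6 overlapped; of all genes 17.2% were lower in this way, and of all microRNA precursors 23.3%. Differences of the 10 ran from -0.26 to 0.13 with a median of -0.09. Mir202 was at 3.19 and 3.15 in TG and 3.57 and 4.40 in WT cells, and Mir363 at 3.11 and 2.84 against 3.61 and 3.58, differences of -0.81 ± 0.24 and -0.63 ± 0.31 (SE). Both are dim, at the 2.68 and 1.57 percentile of all genes. Of the 6 measured precursors with the miR-363 seed, Mir363, Mir25 and Mir92-2 were lower on both TG arrays, Mir32 was higher on both, and Mir92b and Mir367 overlapped.

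Genes around Hmga2 were described by a list of 24 regulators and known targets, of which 18 were measured. Tut4, the uridylyl transferase that tails the let-7 precursor for decay, was higher on both TG arrays by 0.17. Ago2, which carries microRNAs in the silencing complex, was at 7.86 and 8.09 in TG and 8.20 and 8.17 in WT cells, a difference of -0.21. Trim71, a let-7 target that binds RNA, was lower by -0.24. The other 15 overlapped. The 1 higher (5.56%) and 2 lower (11.1%) members stood beside 11.7% and 17.2% of all genes. The median was 0.07, against -0.02 over all genes, and ran from -0.04 without WT KLS 2 to 0.21 without TG KLS 2.

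Across all genes, none passed the threshold of the test between the genotypes. By limma 0 of 19938 genes (0%) had an adjusted p under 0.05, the lowest adjusted p was 0.684, and an unadjusted p under 0.05 was reached by 500 (2.51%), of which 294 (1.47%) lay higher on TG and 206 (1.03%) lower. With each array centred on its median the unadjusted split was 303 higher and 107 lower. Exact permutation of 2 arrays against 2 cannot give a two-sided p under 0.333. The p-values and SEs rest on the spread within the groups of all 8 arrays, MEP preparations included, not on the KLS preparations alone. On 5774 genes (29.0%) the groups did not overlap, 2339 (11.7%) higher and 3435 (17.2%) lower in TG. Of these, 121 genes (0.607%) also differed by at least 1.5 fold, 77 (0.386%) higher and 44 (0.221%) lower, or 106 and 35 with median centring.

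The same 4 arrays can also be described as differences within the shared numbers, TG KLS 1 minus WT KLS 1 and TG KLS 2 minus WT KLS 2. As a description with no test, these correlated at 0.076 over the 19938 genes, which are not independent replicates, and had the same sign for 53.2% of genes. At least 1.5 fold was reached in the same direction in both by 24 higher and 15 lower genes, and in opposite directions by 29 genes. The number of genes at least 1.5 fold apart was 565 within number 1 and 604 within number 2, against 1022 between the TG arrays and 1571 between the WT arrays.

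**Figure D1:**
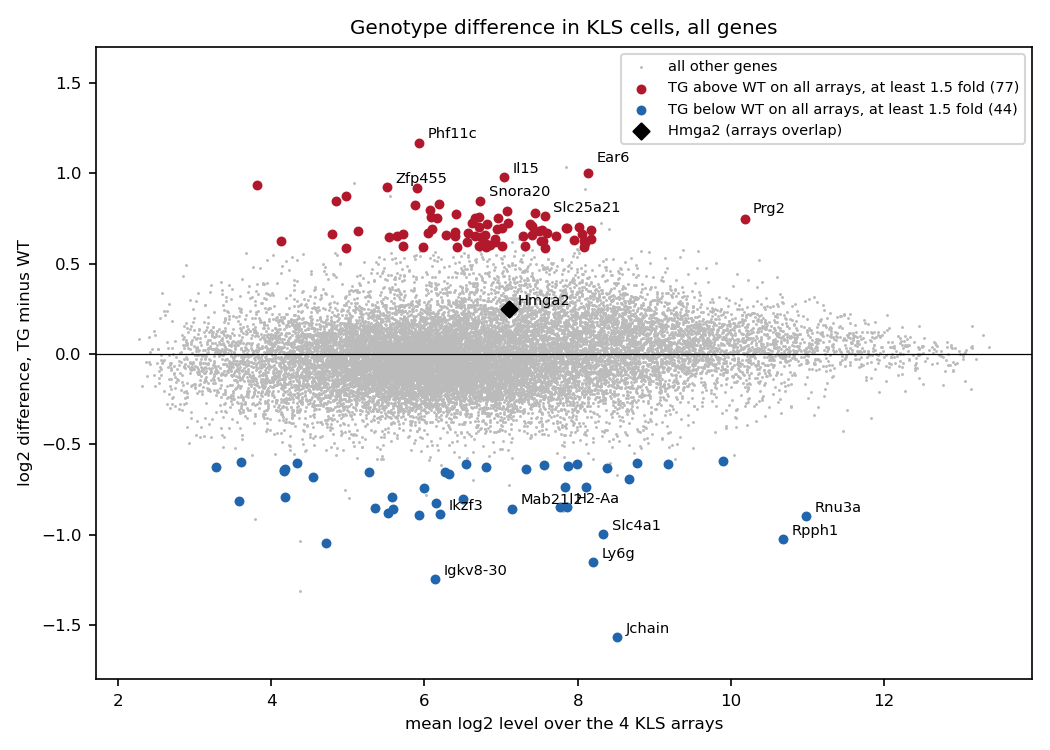
Log2 difference, TG minus WT, against the mean log2 level over the 4 KLS arrays for 19938 genes. Red points are the 77 genes higher and blue points the 44 genes lower in TG by at least 1.5 fold with arrays that do not overlap, grey points all others, and the black diamond is Hmga2 at 0.25; Jchain at -1.57 and Phf11c at 1.17 mark the ends of the range.

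Among genes whose arrays did not overlap, the largest differences toward TG were those of Phf11c, Ear6 and Il15, none past the threshold. Phf11c, a PHD finger gene, was at 6.68 and 6.35 in TG and 5.66 and 5.03 in WT cells. Its difference of 1.17 ± 0.25 (SE, limma adjusted p = 1.00) was the largest toward TG, a fold size of 2.25. Il15, a cytokine that sustains natural killer and memory T cells, was at 7.58 and 7.49 against 6.24 and 6.86, a difference of 0.98 ± 0.40. In both genes the groups did not overlap, and the WT arrays lay further apart than the TG arrays. Ear6, an eosinophil ribonuclease, was at 8.42 and 8.85 in TG and 6.98 and 8.28 in WT cells, a difference of 1.00 ± 0.47. WT KLS 2 lay just below TG KLS 1, so most of that difference came from WT KLS 1. Prg2 and Prg3 encode the major basic proteins of eosinophil granules. Prg2 was at 10.49 and 10.62 against 9.46 and 10.16, a difference of 0.75 ± 0.28, and Prg3 at 8.38 and 8.36 against 7.64 and 7.68, a difference of 0.71 ± 0.25. The 2 Prg3 arrays of each genotype differed by less than 0.1 while the genotypes lay apart.

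Slc25a21, the carrier of 2-oxodicarboxylates across the inner mitochondrial membrane, was at 7.83 and 8.08 in TG and 7.14 and 7.24 in WT cells, a difference of 0.76 ± 0.15 (SE). Npat, the activator of histone gene transcription at the start of S phase, was at 8.46 and 8.31 against 7.73 and 7.71, a difference of 0.67 ± 0.14. Nr2c1, an orphan nuclear receptor, was at 7.12 and 7.09 against 6.501 and 6.52, a difference of 0.59 ± 0.13. These 3 genes, with Phf11c and Gna14, an alpha subunit of heterotrimeric G proteins (0.57 ± 0.14), had the smallest unadjusted p among genes higher in TG. Slfn8, a Schlafen gene of haematopoietic cells, was at 7.99 and 7.69 against 6.96 and 7.15. Rnf2, the ubiquitin ligase of Polycomb complex 1, was at 8.37 and 8.02 against 7.88 and 7.12, where WT KLS 2 lay below the other 3 arrays. Cpa3, the carboxypeptidase of mast cell granules, was at 8.28 and 7.23 against 7.10 and 6.99, where TG KLS 1 lay above the other 3. The other named genes with the largest differences toward TG were Platr8 (0.94), Zfp455 (0.92), Tes3-ps (0.92), Zfp931 (0.87), the histone gene H3c15 (0.85), the small nucleolar RNA Snora20 (0.85), Zfp418 (0.83) and the zinc finger repressor Rsl1 (0.72).

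Toward WT, the largest differences among such genes were those of Jchain, Igkv8-30 and Ly6g, none past the threshold. Jchain, the chain that joins immunoglobulin A and M multimers, was at 7.89 and 7.58 in TG and 8.93 and 9.67 in WT cells. Its difference of -1.57 ± 0.45 (SE) was the largest of any gene, a fold size of 2.96. Igkv8-30, a kappa variable segment, was at 5.36 and 5.66 against 6.85 and 6.67, a difference of -1.25 ± 0.16 (limma adjusted p = 0.684). It had the smallest p of the comparison, with array pairs that lay close together in both genotypes. Mab21l2, a gene of eye and body wall development, was at 6.78 and 6.66 against 7.61 and 7.53, a difference of -0.86 ± 0.13, and again the arrays of a genotype lay close.

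Slc4a1, the anion exchanger of the red cell membrane, was at 7.35 and 8.33 in TG and 8.43 and 9.24 in WT cells, a difference of -0.996 ± 0.35. TG KLS 2 and WT KLS 1 lay next to each other, so the groups did not overlap by a narrow margin. Ly6g, the Gr-1 antigen of mature neutrophils, was at 7.46 and 7.79 against 7.81 and 9.74. Here the difference of -1.15 ± 0.52 came from WT KLS 2, the array with the highest neutrophil markers. Rpph1, the RNA of ribonuclease P, was at 9.97 and 10.37 against 11.11 and 11.28, a difference of -1.02 ± 0.39, and Rnu3a, the U3 small nucleolar RNA, was at 10.78 and 10.30 against 11.64 and 11.22, a difference of -0.90 ± 0.31. Both were lower on each TG array than on either WT array. U3 is made from near-identical gene copies, so its probe set may read several of them. The class II histocompatibility chain H2-Aa was at 7.25 and 7.62 against 7.80 and 8.76, and Igha, the immunoglobulin alpha constant region, at 7.58 and 7.11 against 7.95 and 8.43. Ikzf3, the lymphoid transcription factor Aiolos, had a difference of -0.89 ± 0.69, Csta3, a cystatin A gene, of -1.05 ± 0.47, and Hbq1a, a theta globin gene, of -0.88 ± 0.25. The SE of Ikzf3 takes in the MEP arrays, where WT MEP 1 and 2 were at 8.37 and 5.58. Between its KLS arrays the SD was 0.29 in TG and 0.18 in WT.

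**Figure D2:**
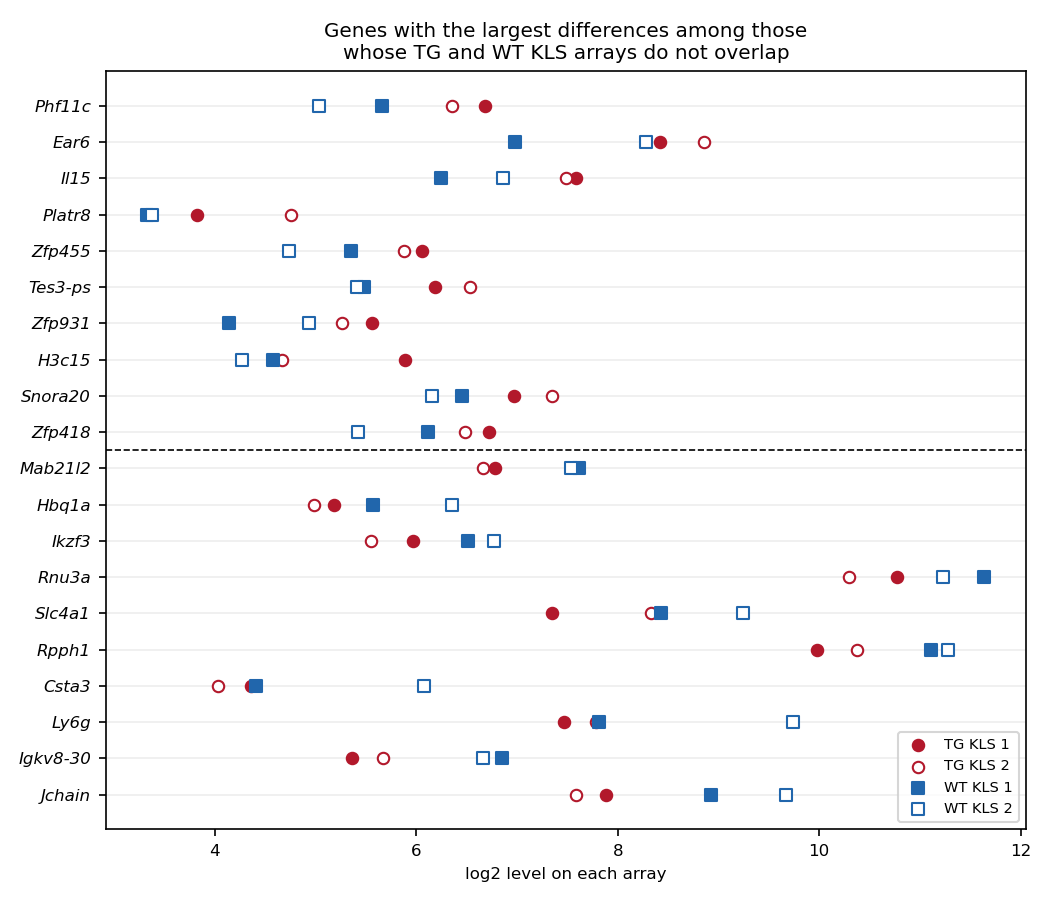
Log2 level of 20 genes on each KLS array, the 10 with the largest difference toward TG above the dashed line and the 10 toward WT below it, among named genes whose arrays do not overlap. Red circles are TG, blue squares WT, filled marks array 1 and open marks array 2; the 2 WT arrays lie far apart for Ly6g (7.81 and 9.74) and close together for Mab21l2 (7.61 and 7.53).

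The direction of small differences depended on the level of the gene. Among the brightest 6646 genes, 1 of 3 equal classes by level, 15.5% were not overlapping and higher in TG and 9.61% lower, with a median difference of 0.03. The dimmest 6646 had 9.49% higher and 20.6% lower, with a median of -0.04, and the middle class 10.2% and 21.5%. Counts of gene lists below are therefore read beside the share of all genes and the levels of the list.

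Lymphoid and antigen presentation genes were the groups with the largest shares lower in TG. Of 28 measured genes of lymphoid priming and the B lineage, 12 (42.9%) were not overlapping and lower in TG and 0 higher, against 17.2% and 11.7% of all genes. The median difference was -0.23. Pax5, the factor that commits cells to the B lineage, was at 6.86 and 7.15 in TG and 7.78 and 7.51 in WT cells, a difference of -0.64 ± 0.48 (SE). Cd79a, a signalling chain of the B cell receptor, was at 6.48 and 6.504 against 6.92 and 7.32, and Ccr9, a homing receptor of thymus-seeding progenitors, at 5.92 and 5.62 against 6.46 and 6.24. Vpreb1 and Vpreb2, surrogate light chains of the pre-B cell receptor, Vpreb3, the progenitor antigen Ly6d, the interleukin 7 receptor Il7r and the factors Foxo1 and Notch1 were also among the 12. WT KLS 1 decided much of the size: without it the median was -0.07, and without WT KLS 2 it was -0.40. With median centring 9 were lower.

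Of 11 class II presentation genes, 5 (45.5%) were lower on both TG arrays and 0 higher, with a median of -0.33 that ran from -0.39 to -0.21 with 1 array left out. The median of this list in MEP cells was -0.58, so lower values in TG were not particular to KLS cells. Besides H2-Aa the 5 were H2-Ab1 (-0.35), H2-Ob (-0.33), Cd74, the invariant chain (-0.51), and Ctss, the protease that trims it (-0.46). Of 24 T and NK genes 7 (29.2%) were lower and 2 higher, with a median of -0.12 that was -0.20 without TG KLS 1; Ccl5, a chemokine of activated T and NK cells, was at -0.55 and Cd7 at -0.33. Of the 11 immunoglobulin segments 2 (18.2%) were lower, Igkv8-30 and Igha, near the share of all genes, and the other 9 overlapped. A list of 16 plasma cell genes was drawn up after the values were seen. Of these, 5 (31.2%) were lower and 0 higher, beside 17.2% and 11.7% of all genes. Among the 5 were Jchain, Igha, the B cell coactivator Pou2af1 (-0.45) and Derl3, a component of endoplasmic reticulum quality control (-0.32). The median was -0.10, and 0.0061 without TG KLS 2. Since the list was drawn up with the values of Jchain and Igha known, nothing is read from its count. The markers of B cells averaged 6.94 and 6.75 on the TG and 7.11 and 7.28 on the WT arrays, and whether sorted cells of that type account for part of these differences was not tested.

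Erythroid, neutrophil and macrophage genes varied with single arrays. Of 44 erythroid genes 9 (20.5%) were lower and 4 (9.09%) higher, beside 17.2% and 11.7% of all genes, and the median was -0.13. In the brightest class, to which 35 of the 44 belong, 9.61% were lower and 15.5% higher. Alas2, the first enzyme of haem synthesis in red cells, was at 8.40 and 8.44 in TG and 8.58 and 9.27 in WT cells, a difference of -0.51. The nuclear export receptor Xpo7 was at a difference of -0.46 and the mitochondrial iron importer Slc25a37 at -0.43, while the erythroid master regulator Gata1 was higher on both TG arrays by 0.33. Without WT KLS 2 the erythroid median was 0.05 and without WT KLS 1 it was -0.25. The mature neutrophil list lay below 0 in 20 of 21 members with a median of -0.29, yet only Ly6g and Cd177 did not overlap. Without WT KLS 2 that median was 0.06 and without WT KLS 1 it was -0.76. The macrophage and dendritic list (median -0.01) split by array number rather than genotype. The complement gene C1qa was at 7.08 on TG KLS 1 and 7.29 on WT KLS 1, and at 5.98 and 6.20 on the arrays numbered 2. Siglech, a marker of plasmacytoid dendritic cells, was an exception, at 6.86 and 6.70 in TG against 7.11 and 7.41 in WT cells.

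**Figure D3:**
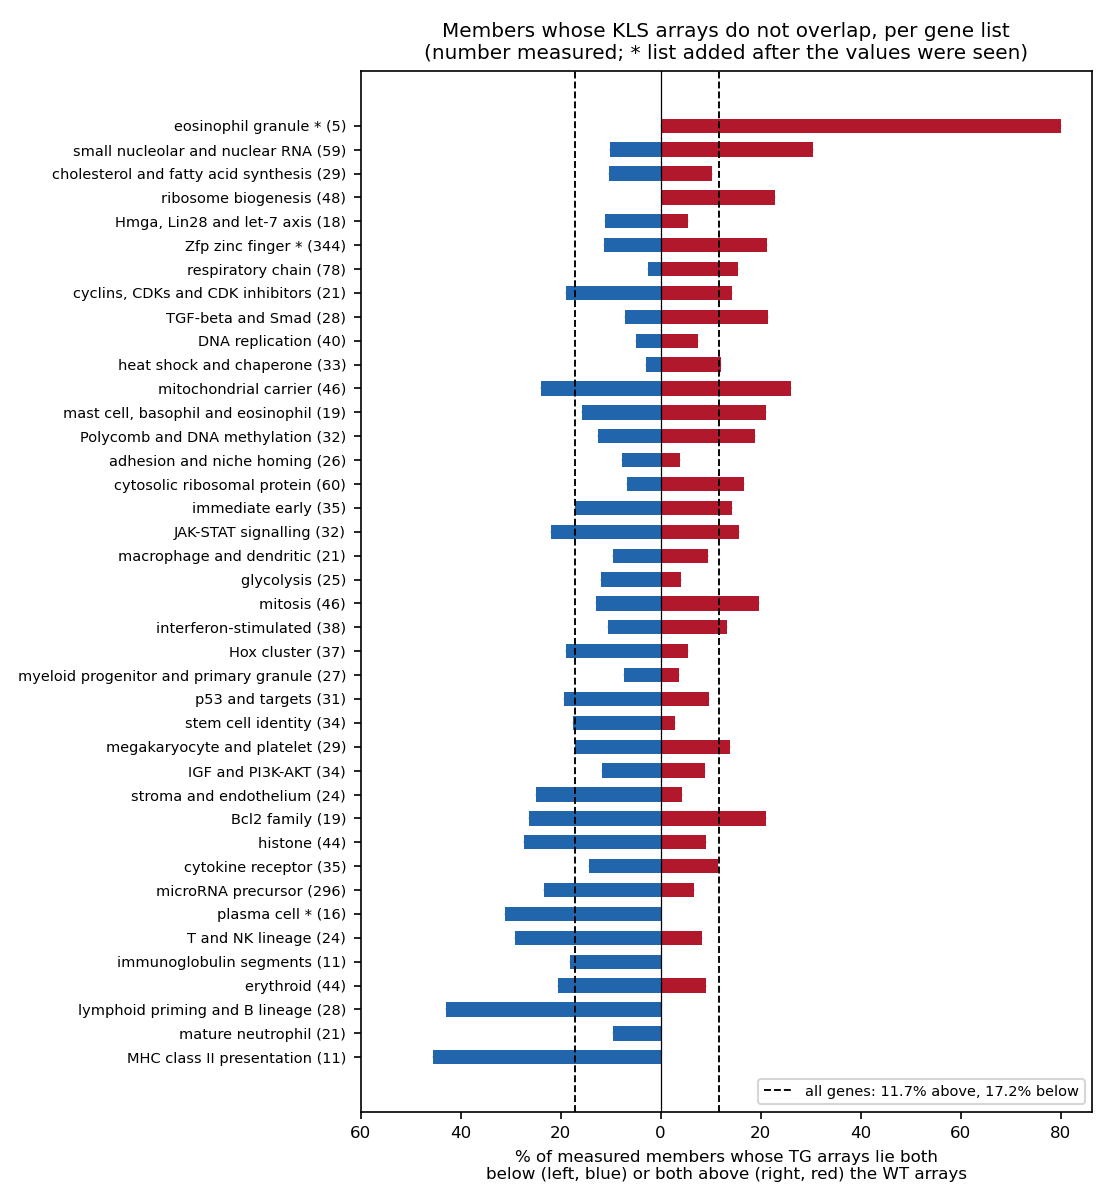
Percent of the measured members of 40 gene lists whose TG arrays both lie below (blue, left) or both above (red, right) the WT arrays, ordered by median difference, with dashed lines at the share of all genes (17.2% and 11.7%). Class II presentation (45.5%) and lymphoid genes (42.9%) reach furthest to the left among the lists not added after the values were seen, and small nucleolar and nuclear RNA (30.5%) furthest to the right.

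Stem cell genes lay close between the genotypes. Of 34 measured members of the stem cell identity list 6 (17.6%) were lower and 1 higher, beside 17.2% and 11.7% of all genes, with a median of -0.03. Hlf, a transcription factor of long-term stem cells, was at 8.62 and 8.80 in TG and 8.98 and 8.91 in WT cells, a difference of -0.24. Mecom, a zinc finger regulator of stem cell quiescence, was at 6.72 and 6.52 against 6.77 and 6.91. Lyl1 (-0.28), Tal1 (-0.12) and Lmo2 (-0.17), which form a transcription complex in stem cells, were lower on both TG arrays. Bmi1, the Polycomb protein needed for self-renewal, was the member higher on both, at 8.62 and 8.47 against 8.44 and 8.14. Without TG KLS 1 the median was -0.10 and without WT KLS 1 it was 0.03.

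Among the myeloid and megakaryocyte lists, Cd33, a sialic acid receptor of myeloid cells, was lower (-0.39) and Srgn, the granule proteoglycan serglycin, higher on both TG arrays (0.21), with 24 of 27 members of the myeloid progenitor list overlapping. Megakaryocyte genes had 4 (13.8%) higher and 5 (17.2%) lower of 29, near the 11.7% and 17.2% of all genes. The thrombin receptor F2r was at 8.08 and 7.74 in TG and 7.57 and 7.25 in WT cells. Cd226, an adhesion receptor of platelets and NK cells, differed by 0.42. The list of mast cell, basophil and eosinophil genes had 19 members, with 4 (21.1%) higher and 3 (15.8%) lower. Those higher were Cpa3, Prg2, Prg3 and the eosinophil peroxidase Epx (0.38). Those lower were the IgE receptor chain Fcer1a (-0.36) and the mast cell proteases Cma1 (-0.19) and Mcpt4 (-0.20). An eosinophil granule list made after the values were seen had 5 measured members, of which Ear6, Prg2, Prg3 and Epx were higher. Its median was 0.71, and 0.35 without WT KLS 1. Since the list was made with the values of Ear6, Prg2 and Prg3 known, nothing is read from this count or median. Stroma and endothelium genes had 6 (25.0%) lower and 1 (4.17%) higher of 24, with the collagen gene Col6a1 at -0.37 and the receptor Pdgfra at -0.34. None of the 24 lies in the brightest class, and in the middle and dimmest classes 21.5% and 20.6% of genes were lower. Of 26 adhesion and homing genes 1 (3.85%) was higher and 2 (7.69%) lower.

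**Figure D4:**
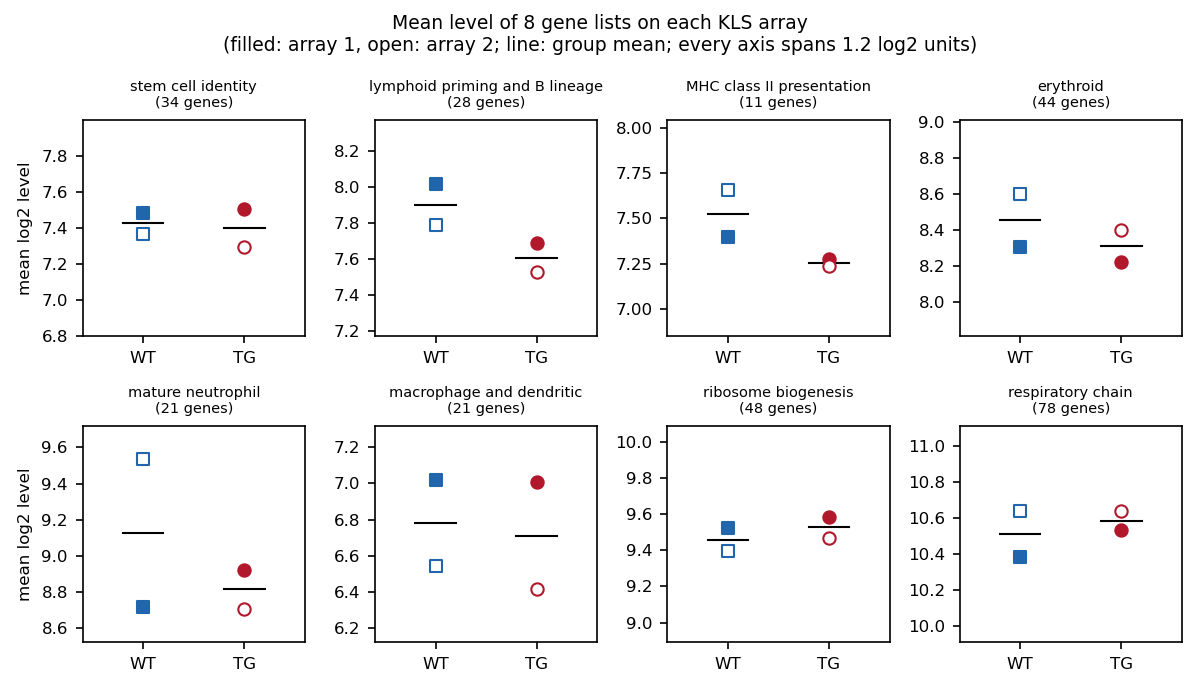
Mean log2 level of 8 gene lists on each KLS array, with filled marks for array 1, open marks for array 2 and a line at the group mean. Both TG arrays lie below both WT arrays for the lymphoid and class II lists, WT KLS 2 stands alone in the mature neutrophil list, and the macrophage list separates by array number.

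The counts of cell division genes depended on the scaling of the arrays. Of 46 mitosis genes 9 (19.6%) were higher and 6 (13.0%) lower, against 11.7% and 17.2% of all genes. In the brightest class, to which 44 of the 46 belong, 15.5% were higher and 9.61% lower. Plk1, the mitotic kinase, was at 8.19 and 8.24 in TG and 8.65 and 8.54 in WT cells, and Foxm1, which drives the mitotic genes, at 7.58 and 7.09 against 7.87 and 7.69. Kif2c and Kif20b, kinesins of the spindle, differed by 0.26 and 0.22, higher on both TG arrays. The median of the mitosis list was -0.02 and turned to 0.06 with the values as deposited and 0.09 with median centring. As deposited 14 (30.4%) were higher and 3 lower, when 12.7% of all genes were higher, and with median centring 18 (39.1%) and 2, when 14.7% were. Of 40 DNA replication genes 3 were higher and 2 lower, with Orc1, of the origin recognition complex, at a difference of 0.30 and cyclin E2, Ccne2, at 0.37; as deposited 8 were higher and 0 lower, and with median centring 10 and 0. Cyclins, CDKs and their inhibitors had 3 higher and 4 lower of 21, with E2f2 at -0.25. Histone genes had 12 (27.3%) lower and 4 higher of 44, or 7 lower and 6 higher with median centring. H4c6 was at 8.43 and 8.53 against 9.003 and 9.16, a difference of -0.61, while H3c15 was higher, at 5.89 and 4.67 against 4.58 and 4.27. Histone genes resemble each other in sequence, and a probe set may read more than 1 copy.

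Among signalling genes, 32 of the JAK-STAT list were measured, with 5 (15.6%) higher and 7 (21.9%) lower. Of all genes 11.7% were higher and 17.2% lower, and most counts of this paragraph lie near those shares. Jak2, the kinase of the erythropoietin and thrombopoietin receptors, was higher by 0.28, and Ptpn2, a phosphatase that acts on Jak and Stat proteins, was at 8.17 and 8.28 in TG and 7.66 and 7.88 in WT cells, a difference of 0.46. The Ptpn2 difference rests on its brightest probe set: averaged over its probe sets it was -0.00067. Bcl2l1, which encodes the survival protein Bcl-xL, was at 7.41 and 7.71 against 8.03 and 8.33, a difference of -0.62, one of 5 (26.3%) lower in the Bcl2 family list of 19, where 4 (21.1%) were higher. The signal transducer Stat5a (-0.18), the feedback inhibitor Socs1 (-0.15) and the kinase Pim1 (-0.26) were also lower on both TG arrays. Cytokine receptors had 4 (11.4%) higher and 5 (14.3%) lower of 35. IGF and PI3K-AKT genes had 3 (8.82%) higher, with Pik3r3, a regulatory subunit of PI3 kinase, at 0.29, and 4 (11.8%) lower, with the kinase Gsk3a at -0.30 and the growth factor Igf2 at -0.28, of 34. TGF-beta genes had 6 (21.4%) higher and 2 (7.14%) lower of 28, including the type I receptor genes Tgfbr1 (0.22) and Acvr1b (0.23) and the effector Smad2 (0.27); without TG KLS 1 their median of 0.05 was -0.07.

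Stress and interferon lists were mixed. Interferon-stimulated genes had 5 (13.2%) higher and 4 (10.5%) lower of 38, beside 11.7% and 17.2% of all genes. Ifit3, which binds foreign RNA, was at 5.76 and 5.47 in TG and 6.57 and 6.15 in WT cells, a difference of -0.74, and the antiviral dynamin-like Mx2 was at 5.74 and 5.51 against 5.19 and 5.04, a difference of 0.51. Immediate early genes had 5 (14.3%) higher and 6 (17.1%) lower of 35, near those shares. Ier2 was at a difference of 0.52, and Btg2, an antiproliferative p53 target, at 8.38 and 8.27 against 8.93 and 9.10. The p53 list had 3 (9.68%) higher and 6 (19.4%) lower of 31, again near the shares of all genes. Rrm2b, the ribonucleotide reductase of DNA repair, was at -0.40. Heat shock genes had 4 (12.1%) higher and 1 (3.03%) lower of 33, with the factor Hsf2 at 0.28 and the small chaperone Hspb1 at -0.29. Of the brightest class, to which 31 of the 33 belong, 15.5% were higher and 9.61% lower.

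Of the chromatin lists, Hox genes had 2 (5.41%) higher and 7 (18.9%) lower of 37, beside 11.7% and 17.2% of all genes. Of the dimmest class, to which 22 of the 37 belong, 9.49% were higher and 20.6% lower. Hoxb5 was at 5.41 and 4.91 in TG and 5.91 and 5.46 in WT cells, and Hoxc13 at a difference of -0.30. Polycomb and DNA methylation genes had 6 (18.8%) higher and 4 (12.5%) lower of 32, or 9 and 2 as deposited and 8 and 2 with median centring. Of the brightest class, to which 26 of the 32 belong, 15.5% were higher and 9.61% lower. Besides Rnf2 and Bmi1, the Polycomb subunits Pcgf5 (0.34) and Cbx8 (0.30) were higher, and Phc2, at 6.78 and 6.48 against 6.93 and 7.15, and Ring1 (-0.16) were lower on both TG arrays.

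Ribosome and mitochondrial genes are bright on these arrays, so their counts were read beside those of the brightest class. Of 48 ribosome biogenesis genes 11 (22.9%) were higher and 0 lower, beside 15.5% and 9.61% of the brightest class of genes, to which 45 of them belong. Polr1e, a subunit of RNA polymerase I, was at 8.44 and 7.93 in TG and 7.86 and 7.82 in WT cells, a difference of 0.35. Utp4, which processes the precursor of the small subunit RNA, was at 9.62 and 9.51 against 9.35 and 9.23, and the nucleolar proteins Ncl and Fbl differed by 0.09 and 0.12. The median was 0.08, and -0.0034 without TG KLS 1. Of 78 respiratory chain genes 12 (15.4%) were higher, the share of the brightest class, and 2 (2.56%) lower, with a median of 0.07 that was -0.05 without WT KLS 1 and 0.20 without WT KLS 2. Ndufa9 of complex I was at 11.24 and 11.11 against 10.72 and 11.02 and Uqcrc2 of complex III at 10.69 and 10.68 against 10.48 and 10.53. Of 60 cytosolic ribosomal protein genes 10 (16.7%) were higher, near that share, and 4 (6.67%) lower, with a median of 0.02 beside 0.03 in the brightest class, and with Rps29 at 0.16 and Rpsa at -0.13. The scaling set these counts in part. With median centring 15 (31.2%) ribosome biogenesis, 27 (34.6%) respiratory chain and 22 (36.7%) ribosomal protein genes were higher, beside 14.7% of all genes. The share of the brightest class under that scaling is not given here.

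Mitochondrial carriers split, with 12 (26.1%) higher and 11 (23.9%) lower of 46, beside 11.7% and 17.2% of all genes. Slc25a2, an ornithine carrier, was at 6.07 and 5.99 in TG and 5.59 and 5.55 in WT cells, a difference of 0.46, and Slc25a42, the coenzyme A carrier, was lower by -0.42. Glycolysis genes had 1 higher and 3 lower of 25, with the glucose transporter Slc2a1 at -0.21 and Ldhb at -0.24, and cholesterol and fatty acid synthesis genes had 3 higher and 3 lower of 29, with squalene epoxidase, Sqle, at 0.26.

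Small nucleolar and nuclear RNAs had the largest share higher in TG among the lists not added later, 18 (30.5%) of 59 with 6 (10.2%) lower. Of all genes 11.7% were higher and 17.2% lower, and of the brightest class, to which 42 of the 59 belong, 15.5% and 9.61%. The median was 0.12 and ran from 0.09 to 0.15 with 1 array left out. Snora20 was at 6.97 and 7.34 in TG and 6.45 and 6.16 in WT cells. Snora62 (0.73), Snord35a (0.66) and Snord118 (0.59), the U8 RNA, were higher and Snora44, at 9.62 and 9.58 against 10.25 and 10.15, Snord61 (-0.62) and Snora7a (-0.58) lower on both TG arrays. Most of these RNAs lie in introns of host genes, and the files do not tell the RNA from its host. MicroRNA precursors went the other way, with 69 (23.3%) lower and 20 higher of 296 and a median of -0.08. Of these 296, 190 lie in the dimmest class, where 20.6% of all genes were lower. With the dimmest 30% of genes left out, 37 (32.5%) of 114 precursors were lower and 6 (5.26%) higher. The shares of all genes were then 15.8% and 12.8%, and the precursor median was -0.13.

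Zinc finger genes named Zfp were listed after the values were seen, because 11 of the 77 genes higher by at least 1.5 fold carry that name and 1 of the 44 lower. Most encode DNA-binding repressors with finger arrays, often with a KRAB domain. Of 344 measured, 73 (21.2%) were higher and 39 (11.3%) lower on both TG arrays, beside 11.7% and 17.2% of all genes, with a median of 0.07; since the list was drawn from these values, nothing is read from this. Zfp931 was at 5.56 and 5.26 in TG and 4.14 and 4.93 in WT cells, and Zfp873 at 7.10 and 6.96 against 6.57 and 5.99. In both the WT arrays lay apart. Without TG KLS 1 the list median was 0.0068 and without TG KLS 2 it was 0.15. Their finger repeats are alike, and whether a probe set reads a neighbouring family member was not tested.

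The genotype difference in MEP cells comes from other arrays and allows a comparison. Over all genes the KLS and MEP differences correlated at 0.028. By limma 0 genes had an interaction, the KLS difference minus the MEP difference, at an adjusted p under 0.05, and 453 (2.27%) had an unadjusted p under 0.05. Of the 77 genes higher by at least 1.5 fold in TG KLS cells, 27 had the same sign in MEP cells. In MEP cells 7 were not overlapping in the same direction, against 13.0% of all genes, and 6 in the other, against 17.2%. Of the 44 lower genes 30 had the same sign. Here 13 were not overlapping in the same direction, against 17.2%, and 1 in the other, against 13.0%. No share of all genes stands beside the same-sign counts, so nothing is read from them. Slc4a1 (-0.996 in KLS and -1.46 in MEP cells), Rnu3a (-0.90 and -1.67), Ikzf3 (-0.89 and -1.88), Btg2 (-0.69 and -1.58), Bcl2l1 (-0.62 and -1.11), Ly6g (-1.15 and -1.35) and H2-Aa (-0.85 and -0.97) were lower on both TG arrays of each cell type. WT MEP 1 stood above WT MEP 2 for these genes, with Ikzf3 at 8.37 and 5.58 and Btg2 at 9.85 and 8.17. Without WT MEP 1 the MEP difference was -0.48 for Ikzf3, -0.74 for Btg2 and -0.47 for H2-Aa, and for the other 4 genes it lay between -1.31 and -0.76. Igkv8-30 and Mab21l2 differed in KLS cells with MEP differences of -0.14 and 0.0044, and had, with Zfp931, Fbxw22 and Zfp873, the 5 smallest interaction p-values, none past the threshold.

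**Figure D5:**
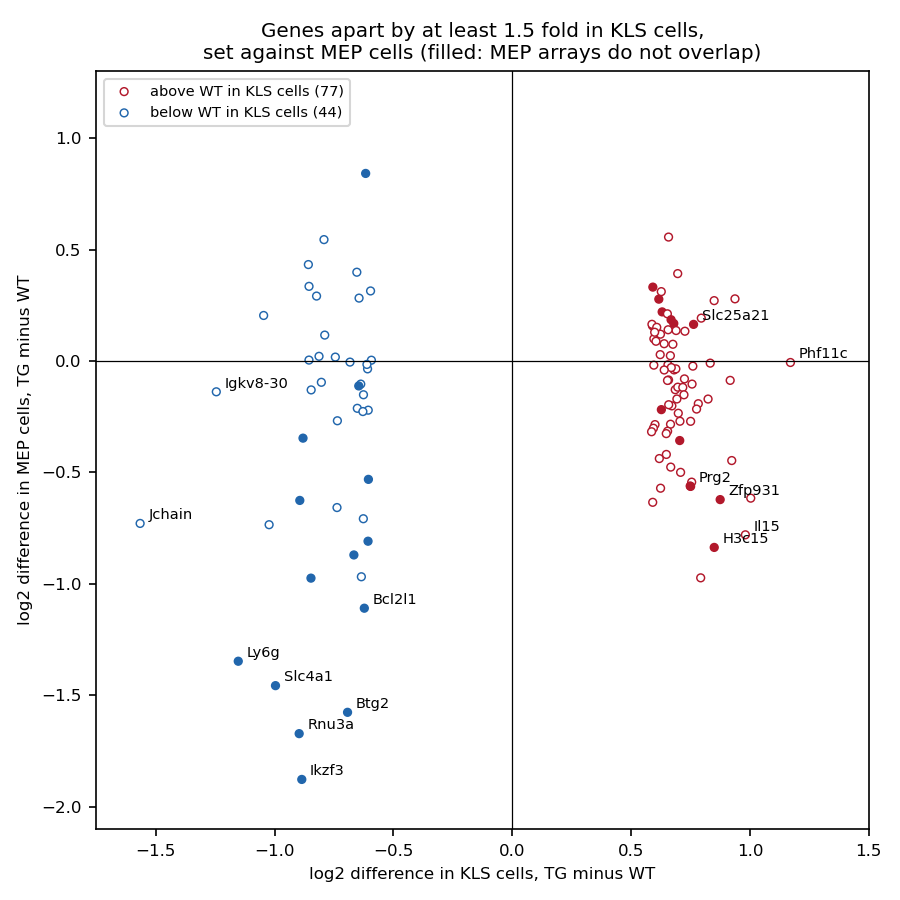
Log2 difference in MEP cells against that in KLS cells, TG minus WT, for the 121 genes at least 1.5 fold apart with non-overlapping KLS arrays. Red marks are the 77 higher and blue marks the 44 lower in TG KLS cells, filled where the MEP arrays do not overlap either; 13 blue genes, Ikzf3 and Rnu3a among them, lie filled in the lower left, and the red genes spread around 0 on the vertical axis.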

How the data were processed

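The deposited values of 8 Affymetrix arrays are on a log2 scale, read from their range of 1.71 to 14.0; the authors used Affymetrix Expression Console, per the submitters' processing notes, but the sources used here do not give its summarization or normalization. The number of arrays limits the precision. Array medians spanned 0.106, so the values were quantile normalized over the 8 arrays. Of 35556 probe sets, 21789 had 1 gene symbol in the platform annotation, 1621 several and 12146 none; 21698 were matched by Entrez identifier to RefSeq names (GRCm38.p6), with 0 symbols changed. For 999 genes with several probe sets the brightest was taken, leaving 19938 genes.

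Group means were fitted over 8 arrays with limma 3.58.1 in R 4.3.3 (residual df 4, prior df 4.82), two-sided, adjusted by Benjamini-Hochberg; the spread is shared with the MEP arrays. The procedure was tested on simulated data. Shared replicate numbers were not taken as pairs: the labels do not say what they mean, and deviations of same-numbered arrays correlated at 0.385 in KLS and -0.21 in MEP cells.

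The comparison, the gene lists and the alternatives were chosen with earlier results of these data known. Named genes are Hmga2, the 10 largest non-overlapping differences in each direction, the 8 largest in each direction in the brightest of 3 equal classes by level, the 5 smallest p in each direction and for the interaction, and 2 members per list; transcripts known by a clone or model name and chemosensory receptors were counted but not named. Further genes named as members of a list were chosen after their values were seen. Alternatives changed the scaling (as deposited, or centred on array medians), the arrays (the KLS arrays alone, or each array left out), the genes (without the dimmest 30%, with probe sets averaged or kept apart) and the variance model (array weights, robust variances, an intensity trend, the replicate block).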

Additional observations from a re-analysis of the deposited data

Results flagged for a closer look

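All genes picked by the naming rules, apart from Hmga2, had KLS arrays that do not overlap. A small interaction p picked Zfp931, Fbxw22 and Zfp873 as well. For 8 named genes the TG arrays lay on opposite sides of the WT arrays in KLS and MEP cells, a count from which nothing is read. The difference between the cell types was tested as limma's interaction (KLS minus MEP), and for each the adjusted p was 1.00, so none passed. The interaction was 1.5 for Zfp931 (0.87 in KLS and -0.62 in MEP cells), 1.69 for H3c15 (0.85 and -0.84), 1.31 for Prg2 (0.75 and -0.56), 1.31 for Zfp873 (0.75 and -0.56), 0.63 for the RNA polymerase I subunit gene Polr1e (0.35 and -0.28) and 0.55 for Smad2 (0.27 and -0.28). In the other direction it was -0.67 for Slc51a, a bile acid transporter subunit (-0.54 and 0.13), and -1.02 for the F-box gene Fbxw22 (-0.34 and 0.68). WT MEP 1 stood above WT MEP 2 for H3c15 (6.05 and 4.87) and Prg2 (9.88 and 9.09), and without it, an alternative chosen after seeing the data, the MEP difference was -0.25 for H3c15, -0.17 for Prg2, -0.35 for Zfp873 and -0.15 for Smad2.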

How the results depend on the processing

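No gene passed the threshold for the KLS difference under any alternative run. Of 859 values of named genes under the alternatives 858 kept their direction, and Ptpn2 reversed with the mean over probe sets (-0.00067). All genes that the naming rules picked, except Hmga2, had KLS arrays that do not overlap. For such a gene, leaving out 1 KLS array cannot reverse the direction. Those values were fixed by the choice of genes and say nothing about how stable the directions are. With 1 array left out, the unadjusted count of 500 ran from 433 (without TG KLS 1) to 935 (without WT KLS 1; 837 without WT KLS 2), the count of non-overlapping genes of at least 1.5 fold, 121, ran from 350 (without TG KLS 1) to 680 (without WT KLS 1), and the interaction count from 0 to 10 (without WT MEP 2, all 10 higher). A group of 1 array overlaps less often by construction, and the lone array is assumed to vary like the other groups. With the replicate block 0 genes passed and 528 had an unadjusted p under 0.05; with the block within each cell type it was 612, and with the block on the 4 KLS arrays alone, both added after seeing the data, 1247 (655 higher, 592 lower) and again 0 passed. Of 360 list medians under alternatives, 313 stayed within 1 SD of the main value (the SD between replicate KLS arrays of the list's median level) and 47 moved further, and the cause was not tested. Leaving out 1 KLS array shifts a group's mean level by no more than about that SD. Those list medians could therefore hardly move further, and the count of 313 says little about how stable the medians are. Counts of list members moved more with the scaling: mitosis genes higher in TG ran from 9 to 18 and DNA replication genes from 3 to 10. The share of all genes higher in TG ran from 11.7% to 14.7% over the same scalings.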
